A study of Homo sapiens with 20 samples.

Results

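The 60 genes described here encode the machinery of mitosis: the motor proteins of the spindle, the kinetochore, the spindle checkpoint and mitotic kinases, condensin, the proteins of spindle assembly and cytokinesis, and the genes that promote anaphase. They were taken as a list of symbols by role, and their values are those of every array probe whose RefSeq accession maps to a listed symbol. A probe was found for 58 of the 60 genes, 75 probes in all, out of 22062 genes tested on the array; KIF18B and UBE2C had no probe that mapped by accession and have no value here. All 75 probes passed the filter on dim probes, which asked for 1 condition or more whose 4 arrays were all well above background, and so can be passed through a condition in which a gene is high. The probe used for a gene was well above background on all 20 arrays for 39 members, and for 4 members (KIF18A, CENPI, SPC24 and PLK4) there was at least 1 condition with no such array.

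In mitosis, condensin compacts the chromosomes, microtubules and kinesin motors build the spindle, and the kinetochore, assembled on centromeric nucleosomes that carry CENPA, ties each chromatid to microtubules. The spindle checkpoint holds back the anaphase-promoting complex and its activator CDC20 until every kinetochore is attached, after which the chromatids separate and the cell divides by cytokinesis. Most of these genes are transcribed in G2 and M phase, and liver cells that have left the cell cycle keep them low.

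HepaRG is a human hepatoma cell line that, plated at low density, grows as bipotent progenitors and later forms hepatocyte-like and biliary-like cells. Cells were collected on day 4 after seeding (D4), when they are progenitors, on day 15 (D15), and on day 30 after a further culture from day 15 without DMSO (D30 − DMSO) or with 2% DMSO (D30 + DMSO). In the fifth condition (D34 ± DMSO) cells that had been in 2% DMSO until day 30 were kept without it for 4 days and collected on day 34. Cells in all 5 conditions were kept in the same medium with serum, insulin and hydrocortisone, and total RNA of 4 independent biological replicates of each condition was hybridised to 1-colour Agilent arrays. No day 34 culture kept in DMSO and none kept without DMSO from the start was among these arrays, so that in the comparisons of D34 ± DMSO the 4 added days and the removal of DMSO cannot be told apart. It is 1 line, and each array averages over the cell types of a culture.

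The values are fluorescence intensities after each array was scaled to a common 75th percentile of 546 units; log2 values are relative to that percentile, so that 0 is the signal of a spot at the 75th percentile. Before scaling, the 75th percentile ran from 407 to 766 over the 20 arrays, and 61.1% to 74.2% of the spots were well above background. The arrays lay on 4 slides, of which the fourth, scanned in the later of 2 sessions, held replicate 4 of every condition and replicate 3 of D15 and of D30 + DMSO. The hepatic label was checked against markers: all 8 hepatocyte markers (ALB among them) and the biliary markers KRT7, KRT19 and SPP1 were well above background on all 20 arrays, SOX9 on 19 and EPCAM on 0. The mesenchymal markers COL1A1, DCN and LUM were so on all 20 arrays, COL3A1 on 6 and PDGFRB on 0. Of the blood and endothelial markers, CD68, CD14, PTPRC and CDH5 were well above background on all 20 arrays, the last 2 at mean log2 levels of -3.20 to -2.94 and -2.20 to -1.85 over the conditions, VWF on 13 arrays and PECAM1 on 1.

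Mitotic genes were high in D4 progenitors, low at D15 and in both D30 conditions, and high again 4 days after DMSO was removed. At D15, 54 of the 58 measured members had fallen from D4 (background: 3.72% of all genes tested were called lower), with a median log2 difference of -2.76 over the members. At D34 ± DMSO, 55 of 58 were higher than at D30 + DMSO (background 4.93%), with a median log2 difference of 3.03, and 52 of 58 were higher than at D30 − DMSO (background 1.32%), with a median of 2.65. A pair of conditions was called different for a gene at a Benjamini-Hochberg adjusted p below 0.005 in limma, over all genes tested, and more than a 2-fold difference. 53 members both fell to D15 and rose after DMSO removal, and 49 also passed the test of D34 ± DMSO against D30 − DMSO, which shares its D34 arrays with the comparison against D30 + DMSO. Over the 5 conditions, 34 of 58 members passed the F-test (background 5.41%), for which a range of over 3-fold and a p under 0.001 after Bonferroni's adjustment were asked. In RNA from whole cultures, fewer dividing cells and less of these transcripts per cell cannot be told apart.

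The separation also held array by array. The 4 arrays of D15 all lay below the 4 of D4 for 54 members (background: 11.4% of all genes), and the 4 arrays of D34 ± DMSO all lay above the 4 of D30 + DMSO for 57 (background 11.3%) and above those of D30 − DMSO for 56 (background 5.31%). The mean was highest at D34 ± DMSO for 43 members and at D4 for the other 15; it was lowest at D30 + DMSO for 36, at D15 for 19 and at D30 − DMSO for 3. Beside the fall at D15, the summed signal of the 8 hepatocyte markers rose from between 82898 and 171386 units per array at D4 to between 733118 and 1066900 at D15, and all 8 were called higher (background 5.82%). Mesenchymal markers moved with the members only in part. The summed signal of the 3 tested (COL1A1, DCN and LUM) was between 9512 and 18050 at D4 and between 3464 and 6745 at D15. It was between 3541 and 7632 at D30 − DMSO, 489.7 and 838 at D30 + DMSO and 3185 and 7221 at D34 ± DMSO. Unlike the members, none of the 3 was called higher at D34 ± DMSO than at D30 − DMSO (median log2 difference -0.0061). LUM and COL1A1 were called lower at D15 (median of the 3 -1.91, background 3.72%), and DCN and LUM were called higher after DMSO removal (median 2.43, background 4.93%). Of 4 biliary and progenitor markers tested, 1 was called higher at D15 (background 5.82%), and 1 was called higher and 1 lower after removal (background 4.93% and 2.12%). Of 4 blood and endothelial markers tested, 1 was called higher at D15 (background 5.82%) and none after removal. The part of these markers in the fall and the rise was not tested. The hepatocyte sum was between 1104530 and 1775500 at D30 + DMSO and between 920301 and 1167230 at D34 ± DMSO. At D34 ± DMSO all 8 were called higher than at D4 (background 5.64%) and none was called different from D30 + DMSO. All 8 fitted differences from D30 + DMSO were negative (median -0.38), 2 of them with an adjusted p below 0.05 in limma.

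**Figure D1:**
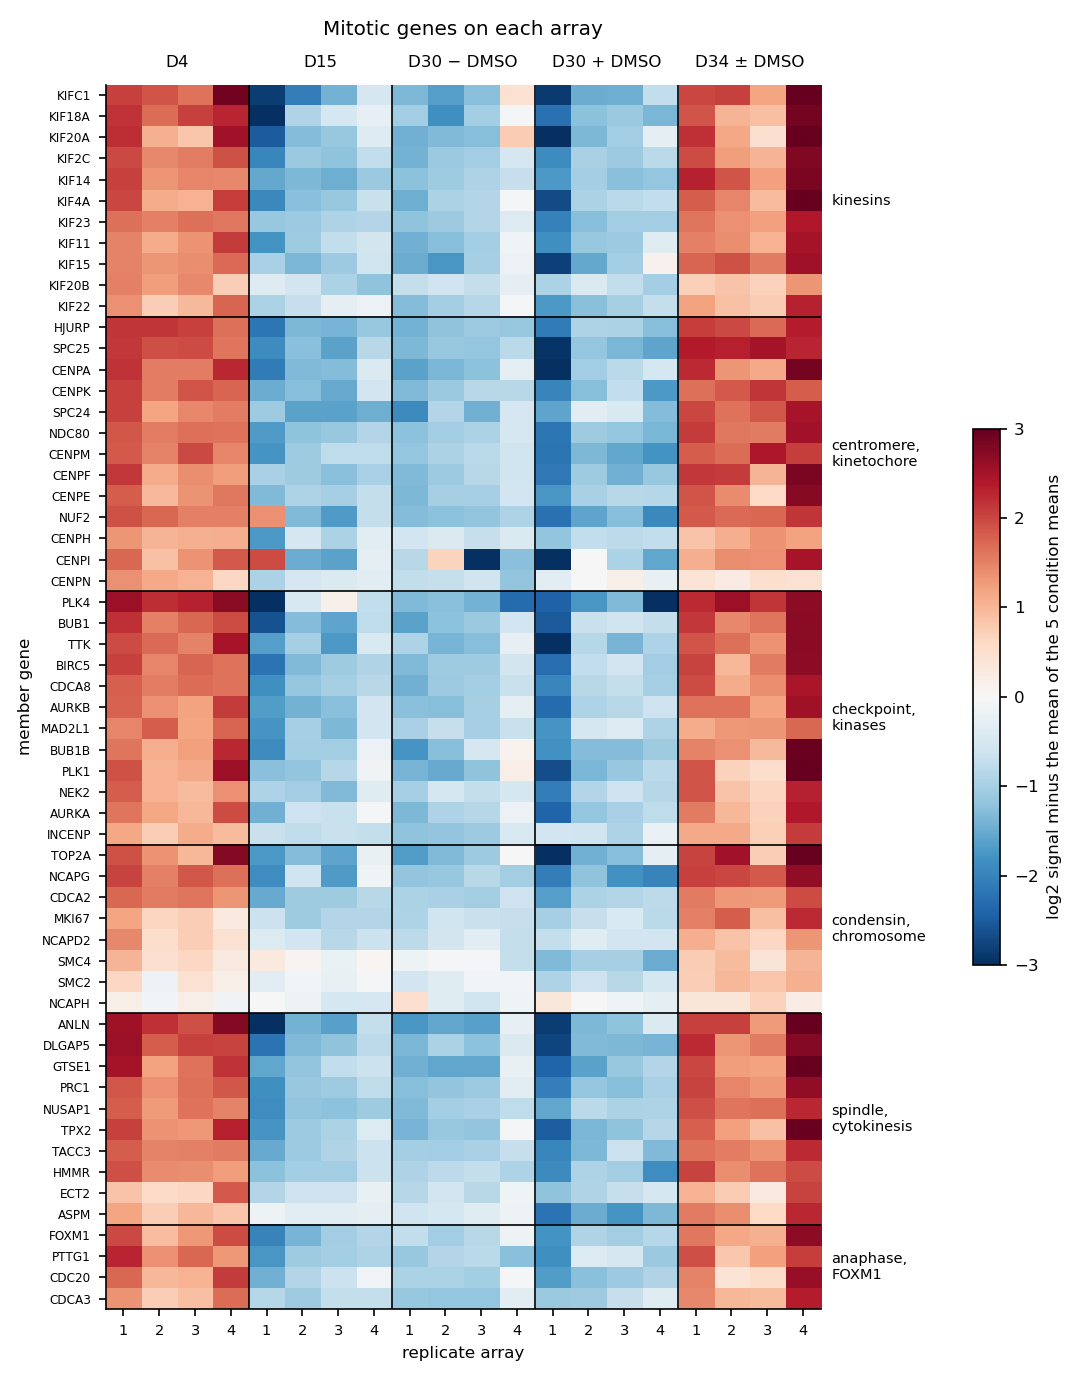
Heat map of the 58 measured members (rows, by class) on the 20 arrays (columns, replicates 1 to 4 of each condition). Colour gives the log2 signal minus the mean of the gene's 5 condition means, cut at -3 and 3. Nearly all rows are red at D4 and D34 ± DMSO and blue in the 3 conditions between, while NCAPH has little colour anywhere.

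The classes moved together. The median over the class, as log2 signal minus each gene's mean over conditions, was 1.66 ± 0.33 (SD, n = 4) for the kinesins at D4, -1.16 ± 0.49 at D15, -0.89 ± 0.53 at D30 − DMSO, -1.26 ± 0.55 at D30 + DMSO and 1.74 ± 0.76 at D34 ± DMSO. The centromere and kinetochore class ran from 1.62 ± 0.19 at D4 to -1.37 ± 0.55 at D30 + DMSO and 1.86 ± 0.36 at D34 ± DMSO. The condensin and chromosome structure class had the smallest range, from 0.75 ± 0.40 at D4 to -0.88 ± 0.20 at D30 + DMSO and 1.22 ± 0.36 at D34 ± DMSO. Whether the classes differ in size of change was not tested.

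**Figure D2:**
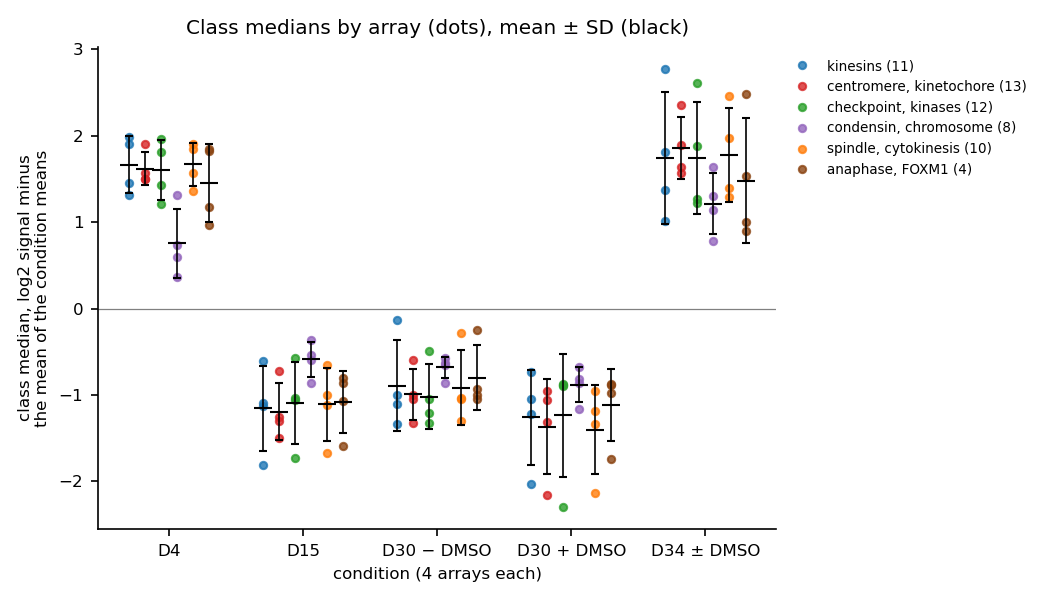
Median over the members of each class on each array (dots), as log2 signal minus each gene's mean over the 5 conditions, with the mean and SD over the 4 arrays in black; the number of members is in the legend. The D4 and D34 ± DMSO arrays of every class lie above 0 and those of D15 and both D30 conditions below it, and the condensin class spans the narrowest range.

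Of the kinesin motors, which slide, cap or walk along spindle microtubules, 11 of 11 measured fell at D15 (median log2 difference -2.81, background 3.72%) and 11 of 11 rose from D30 + DMSO to D34 ± DMSO (median 3.11, background 4.93%). KIF11, the motor that pushes the spindle poles apart, had scaled signals of 433, 332, 390.0 and 664 at D4, 44.1, 73.9, 91.9 and 106 at D15, 56.6, 63.3, 75.5 and 140.3 at D30 − DMSO, 43.0, 69.5, 72.3 and 121 at D30 + DMSO and 440.2, 402, 316 and 863 at D34 ± DMSO. Neither the D4 nor the D34 arrays overlapped with any of the 12 others. The log2 difference was -2.55 ± 0.37 (SE), adjusted p = 4.05e-05 for D15 against D4 and 2.71 ± 0.37 (SE), adjusted p = 2.82e-05 for D34 ± DMSO against D30 + DMSO.

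KIF20A, a motor of the central spindle needed for cytokinesis, had signals of 573, 257, 217 and 707 at D4, 21.7, 49.6, 56.3 and 94.5 at D15, 45.1, 48.9, 50.5 and 208 at D30 − DMSO, 15.5, 48.1, 59.3 and 102 at D30 + DMSO and 564, 275, 172 and 1662 at D34 ± DMSO. Replicate 4 was the highest array of each condition, and its 208 units at D30 − DMSO exceeded the lowest array of D34 ± DMSO and lay just under the lowest of D4. KIF20A was called lower at D15 (log2 -2.99 ± 0.71 SE, adjusted p = 0.00402) and higher after removal than at D30 + DMSO (3.32 ± 0.71 SE, adjusted p = 0.00203) but did not pass against D30 − DMSO (2.73 ± 0.71 SE, adjusted p = 0.0301).

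KIF2C, which depolymerises microtubules at the centromere to correct wrong attachments, was measured at 1825, 1250, 1342 and 1727 at D4, 119.6, 211, 198 and 275 at D15, 173, 214, 224 and 324 at D30 − DMSO, 124, 235, 216 and 264 at D30 + DMSO and 1789, 1104, 929 and 3150 at D34 ± DMSO. Its D4 and D34 arrays all exceeded the other 12 by a wide margin, and the log2 difference was -2.98 ± 0.34 (SE), adjusted p = 2.51e-06 at D15 and 2.94 ± 0.34 (SE), adjusted p = 4.84e-06 after DMSO removal. KIF22, a chromosome arm motor, had signals of 604, 394, 462 and 794 at D4, 123, 145, 197 and 207 at D15, 96.0, 116, 129.6 and 231 at D30 − DMSO, 71.2, 98.4, 118 and 143 at D30 + DMSO and 542, 432, 398 and 1159 at D34 ± DMSO. It followed the same course with a smaller fall (-1.73 ± 0.34 SE, adjusted p = 0.000804) and a rise of 2.46 ± 0.34 (SE), adjusted p = 2.96e-05.

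The other kinesins covered a range at D15 from -3.83 ± 0.58 (SE) for the minus-end motor KIFC1 to -2.02 ± 0.21 for KIF20B on the log2 scale. KIF18A, which dampens chromosome movements at the plate, was on no D30 + DMSO array well above background, so its rise is given as at least 6.05-fold (adjusted p = 0.000417); against D30 − DMSO it did not pass (2.65 ± 0.56 SE, adjusted p = 0.00736). For KIF4A, the chromokinesin that sets the length of the central spindle, the log2 difference at D15 was -2.81 with the probe used and -2.84 with the other, whose adjusted p was 0.0136 and which was not called. After removal the differences were 3.11 and 2.25, and the other probe was again not called (adjusted p = 0.0524 in limma).

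The centromere and kinetochore class fell at D15 in 12 of 13 members (median -2.79, background 3.72%) and rose after DMSO removal in 11 of 13 (median 3.29, background 4.93%). CENPA, the histone H3 variant that marks the centromere, had signals of 427, 279, 278 and 459.6 at D4, 22.2, 37.9, 38.7 and 70.5 at D15, 31.6, 36.8, 40.4 and 78.2 at D30 − DMSO, 11.9, 46.1, 54.3 and 66.0 at D30 + DMSO and 447, 241, 211 and 704 at D34 ± DMSO. Replicate 1 of D15 and of D30 + DMSO were not well above background, and all 8 arrays of D4 and D34 exceeded the other 12. The log2 difference was -3.17 ± 0.50 (SE), adjusted p = 8.17e-05 at D15 and 3.25 ± 0.50 (SE), adjusted p = 8.87e-05 after removal.

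HJURP, the chaperone that loads CENPA, was measured at 3109, 3131, 2939 and 2233 at D4, 157, 277, 267 and 319 at D15, 263, 306, 332 and 321 at D30 − DMSO, 166, 374, 365 and 292 at D30 + DMSO and 2992, 2783, 2302 and 3611 at D34 ± DMSO. Its 4 arrays at D4 spanned a narrow range, and the fall at D15 was -3.52 ± 0.25 (SE), adjusted p = 5.78e-09; the rise after removal was 3.34 ± 0.25 (SE), adjusted p = 3.06e-08. NDC80, the outer kinetochore subunit that holds the microtubule, had signals of 2699, 2152, 2317 and 2298 at D4, 227, 318, 333 and 401 at D15, 315, 358, 381 and 522 at D30 − DMSO, 164, 353, 332 and 285 at D30 + DMSO and 3137, 2222, 2185 and 4215 at D34 ± DMSO. It fell by log2 2.91 at D15 and was higher by 3.38 ± 0.25 (SE), adjusted p = 3.68e-08 after removal.

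CENPF, a large protein of the outer kinetochore that accumulates in G2, was measured at 3616, 1787, 2178 and 1966 at D4, 424, 394, 350.2 and 421 at D15, 332, 387, 464 and 548 at D30 − DMSO, 186, 396, 304 and 379 at D30 + DMSO and 3613, 3552, 1673 and 5868 at D34 ± DMSO. The 3 low conditions overlapped and the 2 high ones lay apart from them, with log2 differences of -2.53 ± 0.32 (SE), adjusted p = 6.96e-06 and 3.46 ± 0.32 (SE), adjusted p = 3.10e-07. The partners of NDC80 moved with it: NUF2, SPC24 and SPC25 had log2 differences of -2.26, -2.98 and -3.29 at D15. SPC25 rose by 4.13 ± 0.29 after removal (adjusted p = 2.18e-08 in limma), the most in its class with the probe used for each gene. The second CENPF probe differed by -3.07 ± 0.46 at D15 and 4.17 ± 0.46 after removal, both called. SPC24 was on no D15 array well above background, and its fall there is at least 4.73-fold.

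2 members of the class, CENPN and CENPI, were not called after DMSO removal with the probe used. CENPN, which reads the CENPA nucleosome, had signals of 2506, 2142, 1980 and 1488 at D4, 499, 682, 716 and 758 at D15, 584, 601, 642 and 424 at D30 − DMSO, 773, 953, 1100 and 832 at D30 + DMSO and 1280, 1153, 1382 and 1334 at D34 ± DMSO. It fell at D15 (-1.60 ± 0.18 SE, adjusted p = 1.78e-06) as the others did, but it was higher under DMSO at day 30 on all 4 arrays (0.71 ± 0.18 SE, adjusted p = 0.00886, not called) and gained little after removal (0.50 ± 0.18 SE, adjusted p = 0.0529, not called). Its other 2 probes, which carry accessions of other transcripts, had log2 differences of -0.37 and -0.73 at D15, -0.59 and 0.36 under DMSO at day 30, and 1.33 and 0.72 after removal, none of them called, so that the 3 probes do not share 1 direction under DMSO. CENPI, a subunit of the inner kinetochore, had signals of 34.2, 19.3, 26.5 and 37.2 at D4, 40.5, 3.74, 3.40 and 8.62 at D15, 5.86, 16.6, 1.00 and 4.34 at D30 − DMSO, 1.00, 10.5, 5.39 and 3.53 at D30 + DMSO and 22.2, 27.3, 26.9 and 57.9 at D34 ± DMSO with the probe used, most of the low ones not above background, and was called in no pair. Its fitted differences had the direction of the class (-1.80 ± 0.83 at D15 and 3.05 ± 0.83 after removal, SE). All 4 arrays of D34 ± DMSO lay above those of D30 + DMSO (background 11.3%) and of D30 − DMSO (background 5.31%). The other CENPI probe was called at D15 (log2 -4.80, adjusted p = 6.01e-08) and after removal (4.02, adjusted p = 8.95e-07). It has a lower mean signal than the probe used, so these fitted differences depend on values near background in the low conditions.

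All 12 checkpoint genes, mitotic kinases and chromosomal passenger subunits fell at D15 (median -2.78, background 3.72%) and all 12 rose after DMSO removal (median 2.95, background 4.93%). PLK1, the kinase of mitotic entry and spindle maturation, had signals of 216, 119.6, 127 and 344 at D4, 24.2, 25.4, 32.1 and 53.5 at D15, 21.9, 20.4, 25.2 and 66.1 at D30 − DMSO, 9.16, 22.5, 26.3 and 33.1 at D30 + DMSO and 214, 93.0, 83.5 and 656 at D34 ± DMSO. In the low conditions 4 arrays were not well above background, and within D4 and within D34 replicates 1 and 4 were the highest. PLK1 fell at D15 (-2.52 ± 0.58 SE, adjusted p = 0.00328) and rose from D30 + DMSO (3.14 ± 0.58 SE, adjusted p = 0.000584), while the rise over D30 − DMSO did not pass (2.63 ± 0.58 SE, adjusted p = 0.01). The second PLK1 probe had smaller differences, called at D15 (-1.41 ± 0.33 SE) and after removal (1.75 ± 0.33 SE) and not called against D30 − DMSO (1.58 ± 0.33 SE).

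AURKB, the kinase of the passenger complex, was measured at 225, 171, 151 and 281 at D4, 20.7, 24.7, 27.6 and 44.1 at D15, 27.6, 27.1, 32.7 and 53.4 at D30 − DMSO, 13.2, 34.6, 36.7 and 42.5 at D30 + DMSO and 204, 203, 151 and 383 at D34 ± DMSO, which left a wide gap between the 8 high and the 12 low arrays. The fall at D15 was -2.84 ± 0.36 (SE), adjusted p = 8.81e-06 and the rise 2.93 ± 0.36 (SE), adjusted p = 9.27e-06 after removal. Its partners BIRC5, CDCA8 and INCENP differed at D15 by -3.10 ± 0.38, -2.87 ± 0.30 and -1.69 ± 0.24 and after removal by 2.97 ± 0.38, 2.85 ± 0.30 and 1.84 ± 0.24 (SE), so that INCENP, the scaffold, moved least.

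BUB1B, which inhibits CDC20 as part of the mitotic checkpoint complex, had signals of 519, 363, 395 and 819 at D4, 46.1, 84.0, 82.1 and 151 at D15, 50.2, 69.9, 119.5 and 183 at D30 − DMSO, 48.5, 68.8, 69.2 and 81.3 at D30 + DMSO and 479.7, 441, 334 and 1334 at D34 ± DMSO. The fall was -2.58 ± 0.45 (SE), adjusted p = 0.000243 and the rise 3.07 ± 0.45 (SE), adjusted p = 5.45e-05. MAD2L1, the checkpoint protein that closes around CDC20, was measured at 625, 804, 513 and 761 at D4, 66.0, 114, 89.3 and 152 at D15, 115, 140.0, 114 and 142 at D30 − DMSO, 66.8, 158, 170.2 and 118 at D30 + DMSO and 491, 561, 572 and 742 at D34 ± DMSO. Its fall (-2.73 ± 0.27 SE, adjusted p = 4.73e-07) and rise (2.28 ± 0.27 SE, adjusted p = 6.88e-06) were of the same order, and the arrays of D34 ± DMSO overlapped with those of D4.

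PLK4, the kinase that starts centriole duplication, had signals of 61.5, 47.8, 51.6 and 67.9 at D4, 1.00, 7.44, 11.4 and 6.23 at D15, 4.11, 4.32, 3.86 and 2.09 at D30 − DMSO, 1.93, 3.10, 4.11 and 1.18 at D30 + DMSO and 48.8, 61.0, 45.8 and 66.5 at D34 ± DMSO. It was well above background on all 8 arrays of D4 and D34 ± DMSO and on none of the other 12, so that only a bound can be given for its changes: at least 4.03-fold lower at D15 (adjusted p = 5.87e-05), at least 4.05-fold higher at D34 ± DMSO than at D30 + DMSO (adjusted p = 5.61e-06) and at least 4.01-fold higher than at D30 − DMSO. Its fitted differences of -3.56, 4.56 and 3.99 depend on values below background. The remaining kinases BUB1, TTK, AURKA and NEK2 fell by between 2.12 and 3.41 on the log2 scale at D15.

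Condensin and chromosome structure was the class with most exceptions: 5 of 8 members fell at D15 (median -1.50, background 3.72%), and 7 of 8 rose after DMSO removal (median 2.17, background 4.93%). TOP2A, the topoisomerase that untangles sister chromatids, had signals of 382, 258, 203 and 686 at D4, 30.9, 41.0, 34.0 and 86.6 at D15, 31.9, 40.5, 47.5 and 102 at D30 − DMSO, 7.89, 37.2, 41.9 and 82.5 at D30 + DMSO and 412, 587, 169 and 1024 at D34 ± DMSO. Its lowest array was replicate 1 of D30 + DMSO, and the log2 differences were -2.96 ± 0.64 (SE), adjusted p = 0.00186 and 3.83 ± 0.64 (SE), adjusted p = 0.000216. MKI67, the Ki-67 protein that coats mitotic chromosomes and marks cycling cells, was measured at 308, 214, 227 and 166 at D4, 87.2, 65.1, 73.7 and 74.1 at D15, 72.1, 89.6, 85.8 and 84.2 at D30 − DMSO, 68.3, 84.2, 98.6 and 77.9 at D30 + DMSO and 385, 483, 254 and 642 at D34 ± DMSO. With the probe used for each gene, it had the largest fitted difference of all members between D34 ± DMSO and D4 (0.90 ± 0.23 SE, under 2-fold). Its fall was -1.58 ± 0.23 (SE), adjusted p = 3.60e-05 in limma. A probe of MKI67 with a log2 difference of -2.30 ± 0.64 at D15 was not called, while the third probe was called at -2.69 ± 0.28.

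Among the condensin subunits, NCAPG and NCAPD2 of condensin I fell at D15, and the ATPases SMC2 and SMC4, shared by both condensins, did not pass with any probe. NCAPG and NCAPD2 had log2 differences of -2.83 ± 0.31 and -1.42 ± 0.20 (SE), both called. SMC4 had signals of 2840, 1977, 2155 and 1674 at D4, 1718, 1471, 1214 and 1459 at D15, 1248, 1363, 1340 and 843 at D30 − DMSO, 554, 695, 702 and 497 at D30 + DMSO and 2359, 2697, 1835 and 2804 at D34 ± DMSO. Its D15 arrays lay between D4 and D30 + DMSO and overlapped with D4, and the difference at D15 was -0.54 ± 0.20 (SE), adjusted p = 0.0537, whereas after removal it was 1.98 ± 0.20 (SE), adjusted p = 7.55e-07. The second SMC4 probe differed by -0.84 at D15 (adjusted p = 0.000551), under 2-fold. SMC2 was measured at 391, 225, 353 and 290.2 at D4, 199.9, 239.8, 218 and 244 at D15, 172, 199, 242 and 242 at D30 − DMSO, 134, 166, 143 and 177 at D30 + DMSO and 426, 506, 453 and 534 at D34 ± DMSO, with -0.45 ± 0.17 at D15 and 1.63 ± 0.17 after removal (adjusted p = 1.03e-06). The second SMC2 probe differed by -1.17 at D15 (adjusted p = 0.0095), over 2-fold but not called, and by 2.11 after removal, called.

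NCAPH, the kleisin of condensin I, passed no pair test. Its signals were 30.0, 24.99, 29.9 and 24.6 at D4, 26.8, 23.8, 18.3 and 18.7 at D15, 37.3, 20.6, 17.4 and 24.3 at D30 − DMSO, 33.4, 26.6, 24.3 and 21.5 at D30 + DMSO and 34.0, 34.1, 42.5 and 31.0 at D34 ± DMSO, well above background on all arrays save 1 of D4 and 1 of D30 − DMSO. The D34 ± DMSO arrays all exceeded those of D4 and D15 by a little (background for D34 ± DMSO above D4: 10.6%) and overlapped with both D30 conditions. The log2 difference was -0.33 ± 0.21 (SE), adjusted p = 0.297 at D15 and 0.43 ± 0.21 (SE), adjusted p = 0.161 after removal, the smallest of all members in both comparisons with the probe used for each. The 95% interval of the difference after removal reached from -0.0037 to 0.87.

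All 10 genes of spindle assembly and cytokinesis fell at D15 (median -2.85, background 3.72%) and rose after DMSO removal (median 3.19, background 4.93%). TPX2, which activates AURKA and starts microtubules near chromatin, had signals of 1407, 874, 834 and 1717 at D4, 100.0, 161, 176 and 257 at D15, 131, 154, 149.5 and 333 at D30 − DMSO, 61.8, 132, 147 and 187 at D30 + DMSO and 1178, 802, 622 and 2657 at D34 ± DMSO. It fell at D15 (-2.81 ± 0.44 SE, adjusted p = 8.85e-05) and rose after removal (3.19 ± 0.44 SE, adjusted p = 3.11e-05). PRC1, which bundles the antiparallel microtubules of the central spindle, was measured at 3367, 2368, 2898 and 3344 at D4, 257, 417, 437 and 540.4 at D15, 379, 405, 435 and 740.1 at D30 − DMSO, 221, 409.8, 381 and 468 at D30 + DMSO and 3751, 2531, 2289 and 5836 at D34 ± DMSO. It fell by 2.89 and rose by 3.24 ± 0.31 (SE), adjusted p = 4.67e-07, and it followed the median of the other members most closely, with a Pearson r of 0.998 over the 20 arrays.

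ANLN, the scaffold of the contractile ring, had the largest fall of all members with the probe used for each gene. The second CENPI probe, near background at D15, had a larger fitted fall. The signals of ANLN were 599, 471, 394 and 699 at D4, 12.0, 38.4, 33.1 and 63.1 at D15, 30.8, 34.9, 33.5 and 86.5 at D30 − DMSO, 14.2, 40.3, 44.3 and 76.8 at D30 + DMSO and 425, 428, 249 and 874 at D34 ± DMSO, and D15 replicate 1 was not well above background. The log2 difference was -4.08 ± 0.53 (SE), adjusted p = 9.78e-06 at D15 and 3.58 ± 0.53 (SE), adjusted p = 5.98e-05 after removal. ASPM, a protein of the spindle poles, had signals of 1035, 764, 914 and 815 at D4, 413, 358, 366 and 370.2 at D15, 301, 319, 355 and 411 at D30 − DMSO, 98.9, 161, 134 and 180.1 at D30 + DMSO and 1346, 1195, 691 and 2195 at D34 ± DMSO. It fell in steps, with a smaller difference at D15 (-1.22 ± 0.25 SE, adjusted p = 0.00141) and a further fall under DMSO, and then rose by 3.16 ± 0.25 (SE), adjusted p = 7.63e-08.

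CDC20, the activator of the anaphase-promoting complex, had signals of 1158, 706, 731 and 1513 at D4, 131, 193, 225 and 332 at D15, 182, 181, 174 and 343 at D30 − DMSO, 110.5, 148, 165 and 189 at D30 + DMSO and 987, 467, 513 and 2151 at D34 ± DMSO. It fell at D15 (-2.23 ± 0.41 SE, adjusted p = 0.000473) and rose from D30 + DMSO (2.49 ± 0.41 SE, adjusted p = 0.000209), while the difference of D34 ± DMSO from D30 − DMSO missed the threshold (2.00 ± 0.41 SE, adjusted p = 0.00591). FOXM1, the transcription factor of G2 and M genes, was measured at 413, 198, 255 and 405 at D4, 26.2, 39.6, 50.9 and 56.9 at D15, 62.0, 50.9, 58.7 and 94.0 at D30 − DMSO, 29.9, 55.6, 50.8 and 57.2 at D30 + DMSO and 313, 235, 218 and 673 at D34 ± DMSO. The log2 difference was -2.87 ± 0.35 (SE), adjusted p = 5.58e-06 at D15 and 2.78 ± 0.35 (SE), adjusted p = 1.20e-05 after removal, with all 8 arrays of D4 and D34 ± DMSO above the other 12. PTTG1, the securin, and CDCA3, a trigger of mitotic entry, were called in both comparisons too, with -2.86 and -2.0 at D15 and 2.47 and 2.25 after removal.

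**Figure D3:**
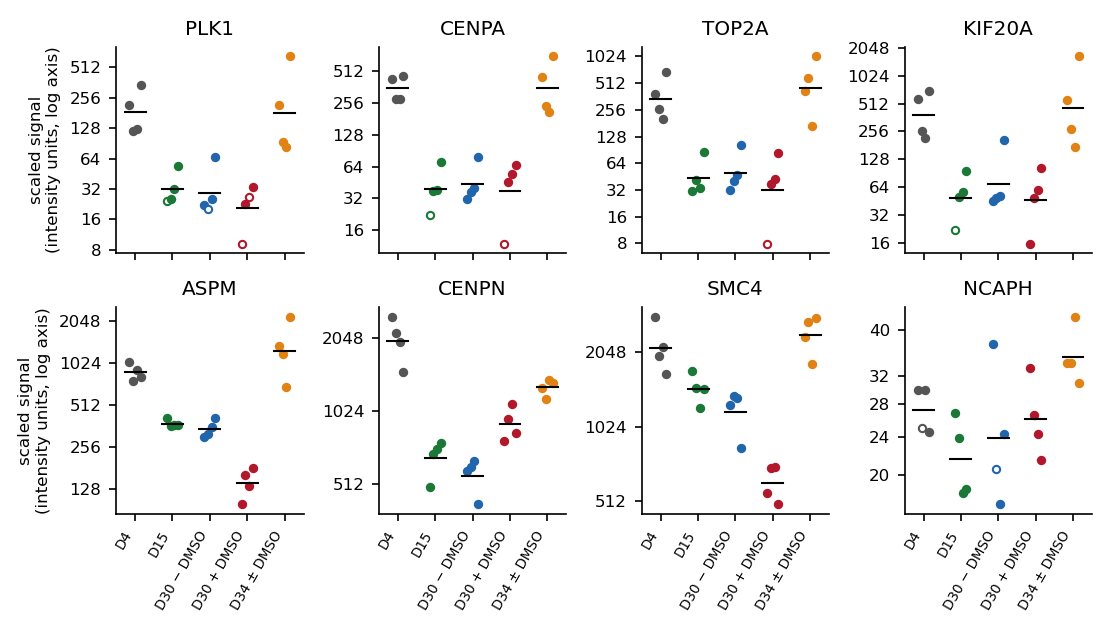
Scaled signal (intensity units, log axis) of 8 members on each array, with replicates 1 to 4 from left to right and the mean of the log2 values as a bar; open circles were not well above background. PLK1, CENPA, TOP2A and KIF20A are low in the 3 middle conditions, ASPM and SMC4 are lowest at D30 + DMSO, CENPN is higher with DMSO than without it at day 30 with the probe shown, and NCAPH varies little.

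The fall and the rise can be set side by side because they share no array. Over the 58 members, the log2 differences of D15 against D4 and of D34 ± DMSO against D30 + DMSO had a Pearson r of -0.76 and a Spearman rank correlation of -0.71, a description across genes that are not independent. With the probe used for each gene, 6 members rose by over 1 on the log2 scale more than they had fallen (ASPM, SMC4, NUF2, CENPI, SMC2 and NCAPG). CENPN rose by over 1 less than it had fallen. CENPI was near background in the low conditions. The D15 arrays of NUF2 had an SD of 1.37, against 0.16 to 0.42 in the other conditions. The second SMC2 probe, at -1.17 and 2.11, did not reach this limit. More than a 4-fold difference was fitted for 46 members at D15 and for 49 after removal. Over the 20 arrays, 51 of the 58 members had an r above 0.9 with the median of the others, and the lowest were 0.408 for NCAPH, 0.729 for CENPI, 0.759 for SMC4 and 0.800 for CENPN; these arrays form 2 clusters, low and high, and the values describe that split.

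**Figure D4:**
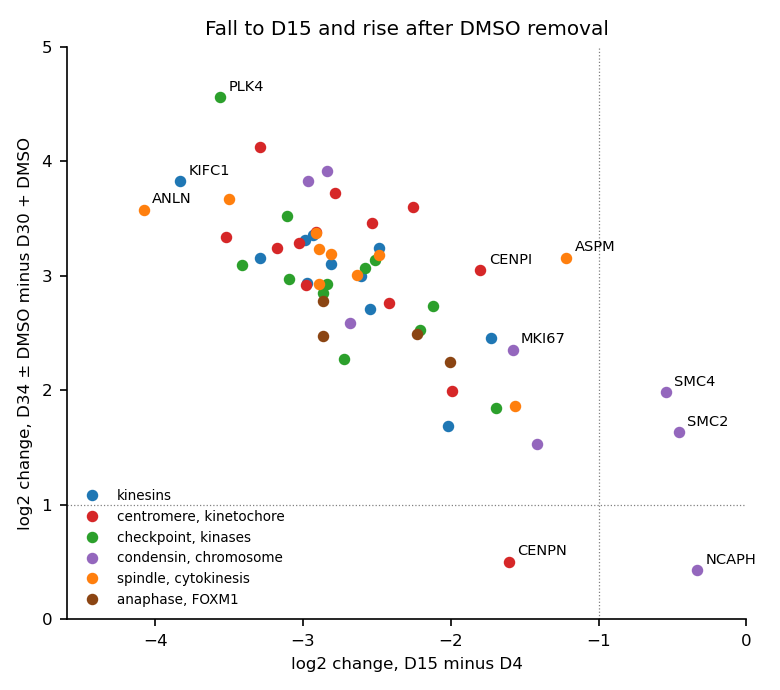
Log2 difference of D15 minus D4 (x axis) and of D34 ± DMSO minus D30 + DMSO (y axis) for the 58 members, coloured by class; dotted lines mark a 2-fold difference. Each member is shown by the probe used for it. Most members fell and rose by more than 2-fold, NCAPH by neither, SMC2 and SMC4 rose only, and CENPN fell only.

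In the comparison that isolates DMSO at day 30, few of these genes were called. With the probe used for each gene, ASPM alone passed, lower at D30 + DMSO by log2 -1.30 ± 0.25 (SE), adjusted p = 0.0012 in limma (background: 4.16% of all genes were called lower). All 4 of its arrays lay below those of D30 − DMSO. The median over the 58 members was -0.38, and 50 were negative. The arrays of 5 members lay wholly lower under DMSO (ASPM, SMC4, NCAPG, CENPM and CENPH; background 12.5%) and those of CENPN wholly higher with the probe used (background 12.6%). SMC4 differed by -0.96 ± 0.20 (adjusted p = 0.00181), just under 2-fold; its second probe was called, at -1.15 ± 0.16. Beside this comparison, DCN and LUM of the mesenchymal markers were called lower under DMSO (-2.97 and -2.68), and their part was not tested. The second ASPM probe differed by -1.11 ± 0.37 and was not called. CENPM differed by -0.85 ± 0.24 with the probe used and by -1.10 ± 0.38 with the other, neither called. Other probes of CENPF (-1.35 ± 0.46), KIF23 (-1.23 ± 0.50) and MKI67 (-1.10 ± 0.64) were over 2-fold lower under DMSO and not called. Further probes of KIF4A (0.57), CENPI (0.32) and MKI67 (0.21) were higher and not called.

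Replicate 1 of D30 + DMSO was low for the members: 56 of 58 were below their condition mean on it. Without it, no member was called and the median was -0.10. Within slides, the median of D30 + DMSO minus D30 − DMSO was -0.37 on slide 3 and -0.51 on slide 4. Slide 3 holds the low replicate 1 of D30 + DMSO. On slide 4 the only D30 − DMSO array is replicate 4, on which 51 of 58 members were above their condition mean. With that array left out, the median over all slides was -0.19. The 3 tested of 5 mesenchymal markers moved in the same comparison: their summed signal was between 3541 and 7632 units at D30 − DMSO, between 490 and 838 at D30 + DMSO and between 3185 and 7221 at D34 ± DMSO, with DCN and LUM called lower under DMSO and COL1A1 not. Their part in the values of ASPM and SMC4 was not tested. For 26 members the 95% interval of the difference lay within 2-fold in both directions, and for the other members it reached beyond 2-fold.

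From D15 to D30 without DMSO no member was called in limma (background 0.00907%), and none had an unadjusted p below 0.05; the methods' t-test called none either. The median difference was 0.17, the fitted values ran from -0.85 for CENPI, well above background on 1 array at D15 and on 0 at D30 − DMSO, to 0.76 for KIFC1, well above background on 2 and 3 arrays, and for 37 members the 95% interval lay within 2-fold.

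The comparison of D34 ± DMSO with D4 asks how far the members returned to the level of progenitors. The signal at D34 ± DMSO was a median of 108% of that at D4, from 64.4% for CENPN to 187% for MKI67. No member was called different in limma (background 8.54%); 3 had an unadjusted p below 0.05, and the methods' t-test called none. Those 3 were MKI67 (0.90 ± 0.23 SE, adjusted p = 0.00663) and SMC2 (0.63 ± 0.17 SE, adjusted p = 0.00847), higher at D34 ± DMSO, and CENPN (-0.63 ± 0.18 SE, adjusted p = 0.0134), lower. For SMC2 and CENPN other probes differed: the second SMC2 probe was at 0.10, and the other 2 of CENPN were at 0.36 and 0.20, the opposite direction. The other 2 MKI67 probes were at 0.72 and 1.13, the same direction as the probe used, and were not called. The arrays of SPC25, NCAPH and SMC2 lay wholly above those of D4 and those of CENPN wholly below (background 10.6% and 12.4%). For 35 members the 95% interval lay within 2-fold, and for the others it reached beyond 2-fold. This comparison shares its D4 arrays with the fall at D15 and its D34 arrays with the rise.

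The arrays of a condition varied together in these genes. Replicate 4 of D34 ± DMSO was high, with 55 of 58 members above their condition mean and a median deviation of log2 0.79, and replicate 4 of D30 − DMSO and of D15 were high too (51 and 50 members above). Replicate 1 of D15 was low for 46 members. The replicate 4 arrays all lie on slide 4, on which the median deviation of all genes on them ran from -0.17 to -0.11. On each slide that held both conditions, the median of D15 minus D4 was -3.39, -2.55 and -2.65, that of D34 ± DMSO minus D30 + DMSO was 3.07 and 3.48, and that of D34 ± DMSO minus D30 − DMSO was 2.42, 2.72 and 2.95. All 58 members were positive on every slide in the comparisons of D34 ± DMSO with either D30 condition.

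Other genes of the same structures were divided. Of 32 further kinetochore and centromere genes, 20 were called lower at D15 (background 3.72%) and 19 higher at D34 ± DMSO than at D30 + DMSO (background 4.93%). None was called the other way, and the medians were -1.55 and 1.27. SKA1, a microtubule-binding kinetochore protein, had the largest fall (-4.34) and the largest rise (3.60). PMF1, a subunit of the MIS12 complex, was at 0.07 at D15. Of 32 other genes of the spindle, cohesin, condensin and cytokinesis, 19 were lower and 15 higher (background 3.72% and 4.93%), with medians of -1.49 and 1.13. There CEP55, which recruits the abscission machinery, rose by 4.18 after DMSO removal.

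Of 22 listed kinesins of intracellular transport, 15 were tested; KLC4 rose at D15 (1.48; background: 5.82% of all genes were called higher), KIF3C fell (-2.65; background 3.72%) and 13 were not called, with a median of -0.43 against -2.81 for the mitotic kinesins. After DMSO removal only KIF3A, of the ciliary kinesin, was called among the 15, and it was lower (-1.18; background 2.12%). The difference between the lists was not tested.

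Promoter sequences were looked at because the members moved together. Late cell cycle genes often carry a CHR (cell cycle genes homology region) near the start, bound by the MuvB complex, which represses them in resting cells and with B-MYB and FOXM1 activates them in G2, and CCAAT boxes bound by NF-Y. RefSeq windows from 250 bases before to 50 after the start (GRCh38.p14) were held for 51 of the 60 members, 59 windows in all, some genes having several starts. Stretches of 130 bases before the start are shown, 5′ to 3′ on the gene's strand, for 5 members that fell and rose and for NCAPH, which did neither; capitals mark TTTGAA or TTTAAA and CCAAT, on either strand.
PLK1 (chr16:23678759-23678888, + strand): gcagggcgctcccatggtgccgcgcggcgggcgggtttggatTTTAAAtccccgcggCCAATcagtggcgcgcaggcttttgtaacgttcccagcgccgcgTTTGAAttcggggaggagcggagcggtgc
CENPA (chr2:26785926-26786055, + strand): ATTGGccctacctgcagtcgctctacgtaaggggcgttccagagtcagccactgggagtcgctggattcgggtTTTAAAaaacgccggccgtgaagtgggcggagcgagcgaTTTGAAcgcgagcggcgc
CDC20 (chr1:43358851-43358980, + strand): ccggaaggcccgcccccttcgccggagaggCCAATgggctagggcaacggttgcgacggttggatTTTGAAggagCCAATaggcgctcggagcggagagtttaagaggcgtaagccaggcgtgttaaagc
KIF20A (chr5:138178982-138179111, + strand): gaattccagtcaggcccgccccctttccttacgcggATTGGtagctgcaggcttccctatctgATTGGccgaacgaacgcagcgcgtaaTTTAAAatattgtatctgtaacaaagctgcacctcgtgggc
PRC1 (chr15:90994536-90994665, - strand): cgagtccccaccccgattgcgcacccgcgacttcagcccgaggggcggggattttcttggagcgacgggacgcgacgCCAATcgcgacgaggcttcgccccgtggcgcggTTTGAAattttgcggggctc
NCAPH (chr2:96335636-96335765, + strand): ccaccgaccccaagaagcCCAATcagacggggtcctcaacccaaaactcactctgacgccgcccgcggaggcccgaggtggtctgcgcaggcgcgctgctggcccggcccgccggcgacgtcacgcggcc

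PLK1 and CENPA held 2 CHR-type hexamers in these stretches, CDC20, KIF20A and PRC1 held 1, and NCAPH held a CCAAT box and no CHR-type hexamer, its only one lying after the start. A CHR-type hexamer (TTTGAA or TTTAAA, both strands; TTTAAA reads the same on both) was in 45 of 59 member windows, 76.3%, against 23.99% of all 35116 windows and 19.97% of the 21059 windows of genes with a named probe. Between 100 bases before and 30 after the start, the shares were 62.7%, 10.1% and 7.96%. A CCAAT box (CCAAT, both strands) was in 69.5% of member windows and 34.6% of all, and 2 or more boxes in 42.4% and 10.8%. TTGGCGC or TTCGCGC, the E2F type, was in 15.3% and 5.06%. Matches were counted for each motif on its own and may share bases: the last T of CCAAT can be the first of a CHR-type hexamer, and TTGGCGC can overlap with ATTGG, the reverse of CCAAT.

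The medians of members with and without the hexamer lay close to each other, and the difference between them was not tested. The median difference at D15 was -2.67 for 42 members with a CHR-type hexamer in the window and -2.74 for 8 without, and after DMSO removal it was 3.12 and 2.97. A match of letters is not a bound site, and a window without one says nothing of the factor.

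**Figure D5:**
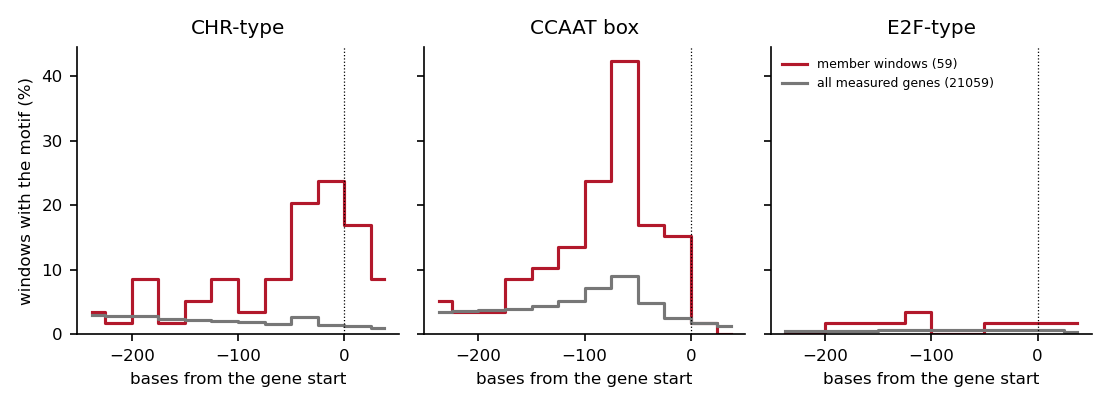
Share of promoter windows (%) in which a motif starts within each bin of 25 bases, by distance from the gene start, for 59 member windows (red) and the 21059 windows of genes with a named probe (grey). CHR-type hexamers of the members gather around the start and CCAAT boxes just before it; the E2F type shows no such peak.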

How the data were processed

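RNA of 5 conditions of HepaRG cells (4 arrays each) was measured on 1-colour Agilent 8x60K arrays. Per the file headers, the authors extracted the deposited intensities with Agilent Feature Extraction 10.7.1.1 (10.7.3.1 per the labels); the processed signal is background-subtracted and not scaled between arrays. The deposited files also give a score of 0 or 1 per spot for being well above background, saturated or an outlier, and a table of log2 values that the authors deposited, set against a baseline, was used as an alternative; how that baseline was set is not given in the sources used here.

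Control spots were left out, and so were those of the remaining spots flagged as outliers (0.451% to 1.10% per array). Spots of a probe were averaged, each array was scaled to a common 75th percentile, values below 1 were set to 1 and log2 was taken. A probe was kept where 1 condition or more had all 4 arrays well above background (26344 of 42405) and named through RefSeq accessions (24826 of 42405 had a symbol); per gene, the probe with the highest mean was used, which left 22062 genes. A linear model with 5 condition means was fitted with limma 3.58.1 in R 4.3.3, with Benjamini-Hochberg adjustment over all genes for 6 comparisons. A fold against a condition with no array well above background is a lower bound: the mean of the bright condition against the higher, per array, of the dim probe's signal and the lowest signal well above background. Motifs were counted in promoter sequences of RefSeq (GRCh38.p14). The script that fits and tests the genes was tested on simulated data; 4 arrays per condition limit the precision.

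The members and gene lists were chosen with earlier results of these data known. All members could be named, with values in every array for those fixed by role, for members that passed no pair test or whose probes disagree, and for the largest and smallest changes; of each further list at most 4 genes with the largest changes are named. Alternatives were quantile scaling, normexp, the authors' matrix, other filters and floors, every probe, slide or replicate as a block, fewer arrays, the methods' t-test and leaving out each array.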

Additional observations from a re-analysis of the deposited data

Results flagged for a closer look

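Of 120 groups of 4 arrays looked at (23 members and the median over all members, in 5 conditions), 5 held an array far from the other 3 by Dixon's ratio, the gap to the nearest array over the range of the group. Chance gives about 1 in 20 such groups, which is 5%. At D30 − DMSO, replicate 4 lay above the others for ANLN (ratio 0.878; log2 signal -2.66 against -3.97 for the nearest array), CDC20 (0.930; -0.67 against -1.58) and KIF20A (0.926; -1.39 against -3.43). At D30 − DMSO, PLK4 was low on replicate 4 (0.844; -8.03 against -7.15), where none of the 4 arrays was well above background. At D30 + DMSO, the median over all members was low on replicate 1 (0.867; -2.04 against -1.04).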

How the results depend on the processing

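The counts of members called lower at D15 (36 to 54 over all alternatives) and higher at D34 ± DMSO than at D30 + DMSO kept their direction; normexp with an offset lowered their medians to -1.80 and 1.99. For D30 + DMSO against D30 − DMSO the count of 1 was 0 with normexp (675 genes called in all, against 1301), 0 with every probe required and 0 with the methods' t-test (580 genes); leaving out an array gave 0 to 2. ASPM then differed by -0.99 with normexp, -1.36 without slide 4, -1.21 without D30 − DMSO replicate 4 and -1.13 without D30 + DMSO replicate 1. For D34 ± DMSO against D30 − DMSO the count of 52 was 31 with only the arrays compared (171 genes against 338) and 11 with the t-test (41 genes); leaving out an array gave 43 to 53. For D34 ± DMSO against D30 + DMSO the count of 55 was 19 with the t-test (499 genes against 1555), and leaving out an array gave 54 to 55; normexp called 866 genes. For D34 ± DMSO against D4 it was 1 with slide as a block, and 0 to 1 without 1 array (1 without D4 replicate 1 or D34 ± DMSO replicate 3); the t-test called 689 genes against 1884. At D15 leaving out an array gave 50 to 54, and the t-test called 36 members and 1108 genes against 2105. From D15 to D30 − DMSO no alternative called a member, with 0 to 10 genes in all. The F-test's 34 members were 20 with the analysis of variance (863 genes against 1194), 6 without slide 4 (546 genes), which leaves fewer arrays, and 23 to 31 without 1 array. The causes were not tested. With the replicate block, the counts were 54, 0, 1, 55, 56 and 0 in the order of the 6 comparisons and 38 for the F-test. With that block no call count moved by over 1.5 times, which does not hold for the other alternatives. Same-numbered arrays had correlations of deviations from -0.33 to 0.80, with 28 of 40 over 0.1. The labels give them only a number in common, but some share a slide, as all replicate 4 arrays do. Of the pairs on the same slide, 44 of 44 were over 0.1, and the part of the slide was not tested. Of 2430 values of named members, no called value changed sign, 75 lost and 19 gained a call, and 100 that were called neither way changed sign. Those values leave out the methods' t-test, the every-probe alternative and a looser adjusted p of 0.05. Calls lost with the t-test are therefore not among the 75. Members near background, such as PLK4, have the least certain fold.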
